A study of Mus musculus with 10 samples.

Results

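The genes described here code for ionotropic and metabotropic glutamate receptor subunits and for the postsynaptic scaffolds, kinases, adenylyl cyclases and transcription factor through which these receptors act in synaptic plasticity. They were taken by name: 31 genes, of which 30 were carried by 32 probe sets annotated to 1 gene symbol, out of 19938 genes measured in all. Grin1, the obligatory NMDA receptor subunit, had no such probe set in the annotation used and was not analysed here. All 30 measured genes lay above the background level, a log2 value of 5.45, which is the 90th percentile of the mean values of 1015 olfactory receptor genes. Of the 30, Grik1 alone lies in the duplicated interval of Mmu16 and is present in 3 copies in Dp1Yey mice. The other 29 are present in 2 copies.

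Expression was measured in the whole hippocampus (right and left) of 16-week-old male mice, with 1 array per mouse. The Dp1Yey line carries a segmental duplication of Mmu16 from Lipi to Zbtb21 (chr16:75540514-97962627 on mm10, 22.42 Mb), the part homologous to human chromosome 21. The 5 Dp1Yey mice were compared with 5 control littermates without the duplication, all untreated and kept on a C57BL/6 background, whose substrain is given differently by the labels and by the methods. Every cell of a Dp1Yey mouse carries the duplication, from development on, together with the other genes of the interval, so that Grik1 was not raised alone.

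Glutamate is the main excitatory transmitter of the hippocampus. AMPA receptors carry the fast synaptic current, NMDA receptors admit calcium when presynaptic release and postsynaptic depolarisation coincide, kainate receptors act on both sides of the synapse, and metabotropic receptors signal through G proteins. Calcium entering the postsynaptic cell activates calmodulin-dependent kinases and the calcium-stimulated adenylyl cyclases, and signalling that reaches the nucleus converges on CREB, while Dlg4 (PSD-95) and the Shank proteins hold the receptors in the postsynaptic density.

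The median log2 value was between 6.31 and 6.37 on the Dp1Yey arrays and between 6.35 and 6.44 on the control arrays, and the interquartile range was between 3.47 and 3.53 and between 3.40 and 3.51, respectively. Control replicate 2 had the highest median and the narrowest range. Markers of CA1 pyramidal cells (5 of 5 measured), CA3 pyramidal cells (6 of 6) and dentate granule cells (8 of 8) were above background, as the tissue label requires. The mean of 6 choroid plexus markers ran from 7.47 to 8.38 in Dp1Yey and from 7.63 to 9.63 in control mice, all 6 being lower in Dp1Yey on average. Control replicates 2 and 3, at 7.81 and 7.63, lay inside the Dp1Yey range, and control replicates 1, 4 and 5 lay between 9.21 and 9.63. The 8 dentate granule markers averaged between 8.50 and 8.62 in Dp1Yey and between 8.52 and 8.75 in control mice, 7 of the 8 being lower. The 8 interneuron markers averaged between 9.86 and 9.95 in Dp1Yey and between 9.76 and 9.87 in control mice, all 8 being higher. Their log2 differences ran from 0.0005 for Gad1 and 0.0075 for Gad2 to 0.2575 for Vip, which was lowest in control replicate 1. The part of these differences in tissue composition in the results was not tested. In whole tissue, fewer cells of a type and less RNA per cell cannot be told apart.

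Of the 30 genes, 1 was upregulated (Grik1) and 1 was downregulated (Grm3) in Dp1Yey hippocampus at an adjusted p under 0.05 in the limma fit, which called 0.687% of all genes higher and 0.11% lower. Both calls were lost when certain single arrays were left out, as given with each gene. A rank statistic over all pairs of arrays called Grik1 and Camk4 higher and Grm3 and Grin2c lower, where it called 2.46% of all genes higher and 0.993% lower. Its limits are set by the spread of ranks over all genes, so that it also calls many genes without a difference. Its calls are therefore a description and not a second test. The values of the 5 Dp1Yey mice lay all above those of the 5 control mice for Grik1 and Camk4 and all below them for Grm3 and Adcy1, a separation found in 2.4% of all genes upwards and 2.46% downwards. An unadjusted p under 0.05 was reached by 8 of the 30, of which 3 were higher (Grik1, Gria4 and Camk4) and 5 lower (Grin2c, Grm3, Grm5, Grm7 and Adcy1), against 8.75% and 10.8% of all genes.

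Across the 29 genes in 2 copies, 9 were higher and 20 (69.0%) lower in Dp1Yey on average. Of all genes 57.9% were lower, and of those above background 53.7%. The median log2 difference was -0.04 for the 29 genes and -0.02 for all genes. The median size of the difference regardless of sign was 0.06 on the log2 scale for these 29 genes and also 0.06 for all genes. The genes in 2 copies therefore differed by about as much as the genes of the whole array, and they are described by family.

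**Figure D1:**
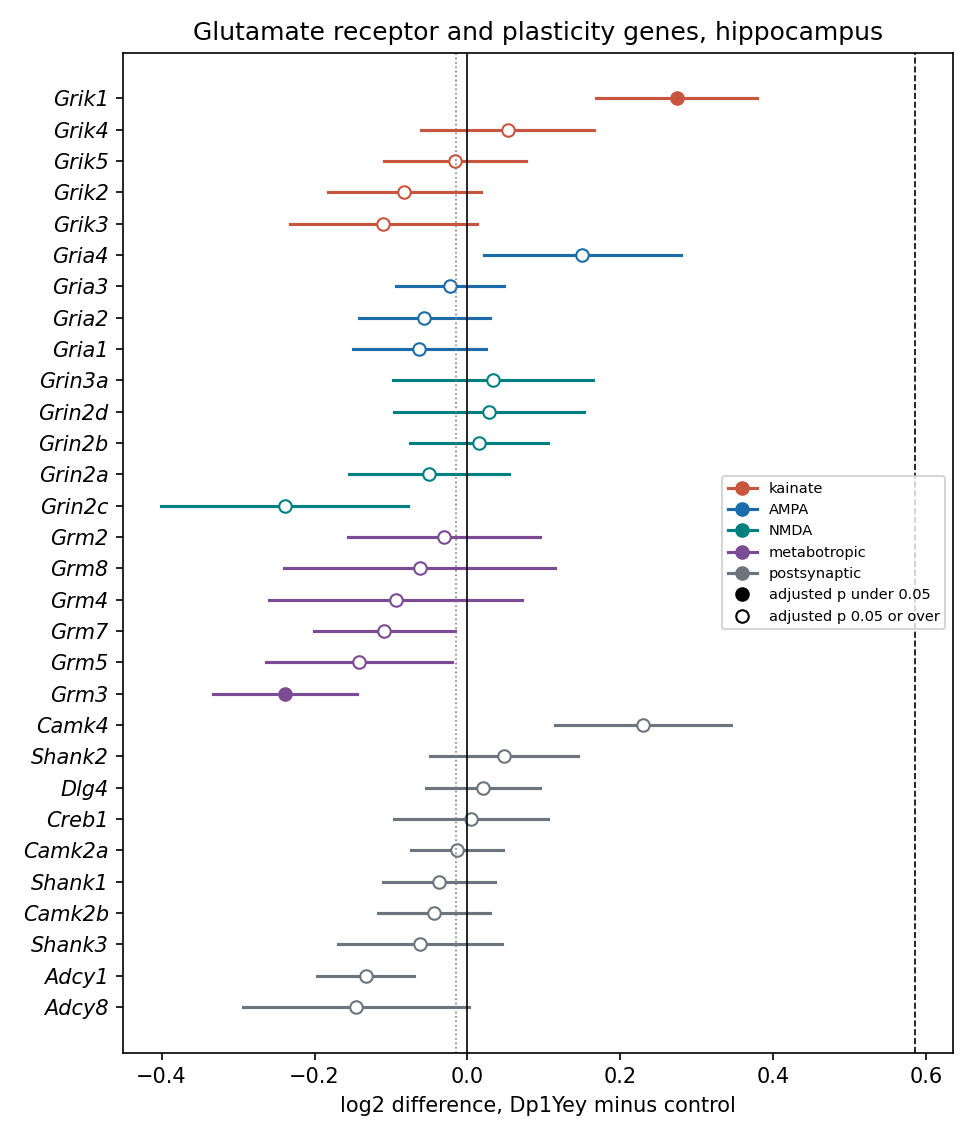
Log2 difference of Dp1Yey minus control for each of the 30 measured genes, by family, with its 95% confidence interval (5 mice per group); filled points passed an adjusted p under 0.05, the dotted line is the median of all genes (-0.02) and the dashed line is the log2 of the 1.5-fold expected from 3 copies. Grik1 (0.27) and Grm3 (-0.24) passed, and no interval of the 30 reached the dashed line.

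Grik1 codes for GluK1, a pore-forming kainate receptor subunit. The gene spans chr16:87895901-88290863 (mm10), 395.0 kb, beginning 12.36 Mb from the proximal end of the duplication. Its log2 values were 7.12, 7.21, 7.07, 7.04 and 7.16 in Dp1Yey replicates 1 to 5 and 6.79, 6.89, 6.80, 6.76 and 6.99 in control replicates 1 to 5. The groups did not overlap, and the nearest values were those of Dp1Yey replicate 4 and control replicate 5. Dp1Yey mice averaged 7.12 ± 0.066 and control mice 6.84 ± 0.092 (SD of 5 mice), a log2 difference of 0.27 (95% confidence interval 0.17 to 0.38, adjusted p = 0.0238). This is 1.21-fold (1.12 to 1.30), which lay below the 1.5-fold of 3 copies against 2 in the moderated test against that dose (adjusted p = 7.45e-05, the 96 genes of the interval that lay above background being the family). The call against no change was lost when Dp1Yey replicate 1 (adjusted p = 0.0694), 2 (0.0675), 3 (0.0558) or 5 (0.0557) or control replicate 4 (0.0677) was left out, without control replicates 1 and 2 together (0.0704) and once the fit held each array's interquartile range as a covariate (0.243). Without control replicate 1 the adjusted p lay just inside the threshold of 0.05. The difference stayed between 0.25 and 0.32 in all of these and the other settings tried.

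Grik1 was set beside the other genes of the duplication. Of 143 measured interval genes, 96 lay above background, and 59 of these were called higher. Grik1 ranked 54 of the 96 by log2 difference, the median fold of the 96 being 1.249 and that of the 59 called genes 1.381. Like 65 of the 96, it was under 1.5-fold by the test. When the 96 genes were split into 3 classes of 32 by mean value, Grik1 fell in the dimmest class. That class had means between 5.46 and 7.11, a median fold of 0.995 and 7 genes called. Grik1 itself averaged 7.12 in Dp1Yey and 6.84 in control mice, where the background level was 5.45. Grik1 had the highest fold but 4 in that class, whereas the other two classes each had a median fold of 1.367, with 23 and 29 genes called. Values near background understate a fold on arrays, and what part this has in the 1.21-fold of Grik1 was not tested.

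Along the chromosome Grik1 stood between a cluster of dosage-called genes on its proximal side and a stretch of low-value genes on its distal side. The nearest called genes before it were Usp16 (a deubiquitinase, 1.44-fold) and Cct8 (part of the CCT chaperonin, 1.39-fold), starting at -440.9 and -412.6 kb from its start. The nearest called genes after it were Tiam1 (a Rac exchange factor, 1.25-fold) and Sod1 (the cytosolic superoxide dismutase, 1.16-fold), at 1891.2 and 2324.9 kb. Between them lay 6 further genes above background that limma did not call: Bach1 (a transcriptional repressor, 1.15-fold, adjusted p = 0.0513, called higher by the rank statistic), Map3k7cl (1.03-fold), and 2310079G19Rik, Gm5965, Krtap19-4 and Krtap11-1, whose folds were between 0.878 and 0.915.

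**Figure D2:**
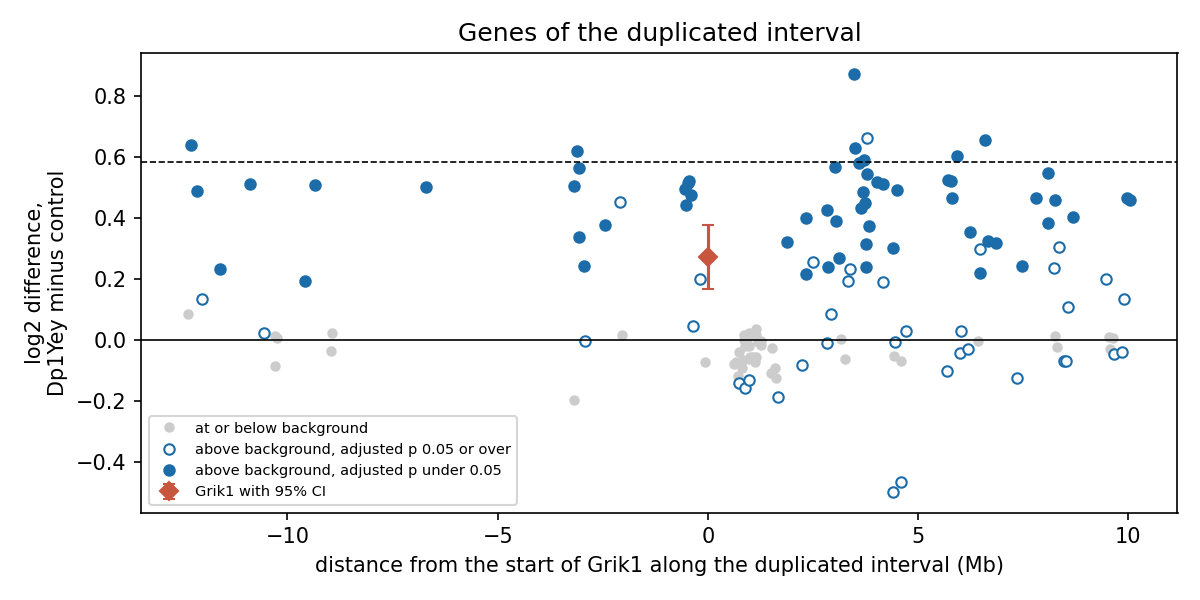
Log2 difference of Dp1Yey minus control for the 143 measured genes of the duplicated interval against their distance from the start of Grik1 in Mb; grey points are at or below background, open points are above it and not called, filled points were called at an adjusted p under 0.05, and the dashed line is the log2 of 1.5. Grik1 (diamond with its 95% confidence interval, 0.17 to 0.38) lies among the called genes of smaller difference, and the grey points just distal to it are genes at background.

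The other kainate receptor subunits, all in 2 copies, did not share the difference of Grik1. Grik2, which codes for the pore-forming subunit GluK2, averaged 9.63 ± 0.066 in the Dp1Yey mice against 9.71 ± 0.081 in controls (SD of 5 mice). Its log2 difference was -0.08 (-0.18 to 0.02, adjusted p = 0.331). Grik3 (GluK3) differed by -0.11 (-0.23 to 0.01, adjusted p = 0.299). The subunits that need a GluK1 to GluK3 partner to form a channel, Grik4 (GluK4) and Grik5 (GluK5), differed by 0.05 (-0.06 to 0.17) and -0.02 (-0.11 to 0.08). Subtracting the deviation of Grik2 from that of Grik1 within each mouse left 0.36 ± 0.106 in Dp1Yey (0.222 to 0.477) and between -0.09 and 0.13 in control mice (log2, n = 5 each), with no overlap. This is given as a description, since Grik1 enters it with the same values as above.

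Among the AMPA receptor subunits no gene was called by limma or by the rank statistic. Gria1 (GluA1) and Gria2 (GluA2), which code for the subunits of most hippocampal AMPA receptors, GluA2 being the one that makes them impermeable to calcium, differed by -0.06 (-0.15 to 0.02) and -0.06 (-0.14 to 0.03) on the log2 scale. Gria3 (GluA3) differed by -0.02 (-0.09 to 0.05). Gria4 (GluA4), which in the adult hippocampus is found mainly in interneurons, was the only one above control on average. Its log2 values were 9.18, 9.08, 9.19, 9.08 and 9.13 in Dp1Yey replicates 1 to 5 and 8.76, 8.96, 9.04, 9.08 and 9.08 in control replicates 1 to 5. The groups touched, because control replicates 4 and 5 were level with Dp1Yey replicates 2 and 4, and control replicate 1 lay apart below. The difference was 0.15 (0.02 to 0.28, adjusted p = 0.201) and fell to 0.09 without control replicate 1 and to 0.07 without control replicates 1 and 2. The mean of the interneuron marker list stood higher in Dp1Yey in the same samples, by 0.084 on the log2 scale, though Gad1 and Gad2 hardly differed. The part of interneurons in the value of Gria4 was not tested.

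For the NMDA receptor, the GluN2 subunits that set its kinetics gave no gene called by limma, and 1, Grin2c, called lower by the rank statistic. Grin2a (GluN2A), the main adult form, is itself on Mmu16 (chr16:9567901-9996083) but outside the duplication, and its log2 difference was -0.05 (-0.15 to 0.05). Grin2b (GluN2B) differed by 0.02 (-0.07 to 0.10), so that the balance of the 2A and 2B messages, whose change marks postnatal maturation, overlapped between the groups (Grin2a minus Grin2b deviations from -0.107 to -0.029 in Dp1Yey and from -0.12 to 0.176 in control mice). Grin2d (GluN2D) and Grin3a (GluN3A), subunits of higher expression in early life, both differed by 0.03, with intervals of -0.10 to 0.15 and -0.10 to 0.16.

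Grin2c (GluN2C), best known from cerebellar granule cells and, in forebrain, from astrocytes and some interneurons, had the largest negative difference of the 30 genes. Its log2 values were 7.63, 7.45, 7.59, 7.62 and 7.44 in Dp1Yey replicates 1 to 5 and 7.84, 8.01, 7.71, 7.55 and 7.81 in control replicates 1 to 5. Control replicate 4 lay inside the Dp1Yey range, and the other control mice lay above it. The difference was -0.24 (-0.40 to -0.08, 0.847-fold), which did not pass the limma threshold (adjusted p = 0.134) and passed that of the rank statistic. It shrank to -0.15 when control replicates 1 and 2 were left out. The mean of the 7 astrocyte markers differed by -0.002 between the groups and that of the 8 interneuron markers by 0.084, and the part of cell composition in the value of Grin2c was not tested.

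**Figure D3:**
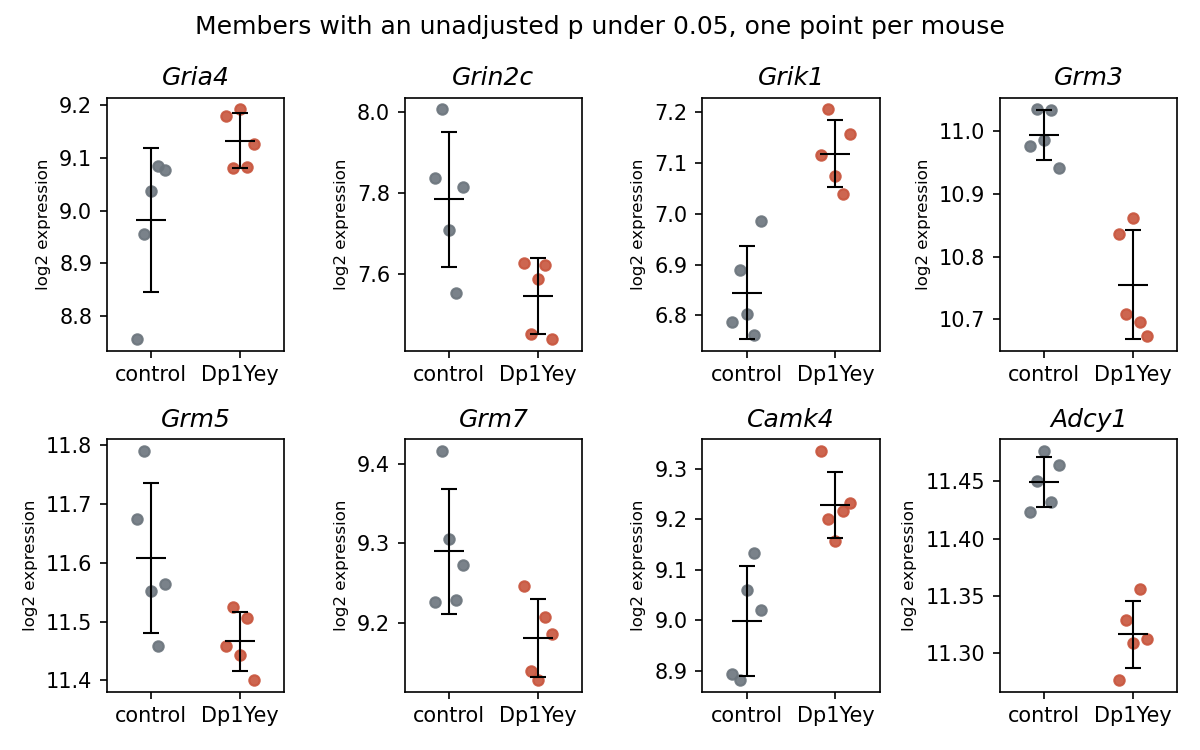
Log2 expression in each mouse for the 8 genes with an unadjusted p under 0.05; each point is 1 mouse, the bars are the mean and SD of 5 mice, and each vertical axis has its own range, which does not begin at 0. The groups were separate for Grik1, Grm3, Camk4 and Adcy1 and met or overlapped for Gria4, Grin2c, Grm5 and Grm7.

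All 6 metabotropic receptor genes among the 30 were lower on average in Dp1Yey, where 57.9% of all genes and 53.7% of those above background were lower. The median log2 difference of the 6 was -0.10 against -0.02 for all genes, and 1 of the 6, Grm3, was called. After centring each array on its median, which moved the median of all genes to 0.03, the median of the 6 was -0.055 and Grm2 stood at 0.0156, above control. The 6 genes come from the same 10 mice and are not independent, so that the count is a description.

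Grm3 codes for mGluR3, a group II receptor that inhibits adenylyl cyclase and that is found on astrocytes as well as on neurons. The gene lies at chr5:9485236-9725352. Its log2 values were 10.84, 10.71, 10.86, 10.70 and 10.67 in Dp1Yey replicates 1 to 5 and 10.98, 11.03, 10.99, 11.03 and 10.94 in control replicates 1 to 5. Every Dp1Yey mouse was below every control mouse, and within Dp1Yey the mice fell into a higher pair (replicates 1 and 3) and a lower trio. Dp1Yey mice averaged 10.76 ± 0.086 and control mice 10.99 ± 0.040 (SD of 5 mice), a difference of -0.24 (-0.33 to -0.14, 0.848-fold, adjusted p = 0.0264). The call was lost when Dp1Yey replicate 2 (adjusted p = 0.0777), 4 (0.0652) or 5 (0.0576) or control replicate 2 (0.0523) or 4 (0.0719) was left out, without control replicates 1 and 2 together (0.0831) and in the fit with that covariate (0.224). Most dentate granule (7 of 8), CA3 (5 of 6), CA1 (4 of 5) and choroid plexus markers (6 of 6) were lower on average as well. The mean of the CA1 list was 0.025 higher, however. Most markers of each other list were higher, those of astrocytes in 4 of 7 cases, while the mean of the astrocyte list differed by -0.002. The part of cell composition in the value of Grm3 was not tested.

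Grm2 (mGluR2), the other group II receptor, differed by -0.03 (-0.16 to 0.09). Subtracting its deviation from that of Grm3 within each mouse left values that overlapped between the groups, from -0.322 to -0.116 in Dp1Yey and from -0.208 to 0.176 in control mice. Grm5 (mGluR5), the group I receptor coupled to phospholipase C and to long-term depression, had log2 values between 11.40 and 11.52 in Dp1Yey and between 11.46 and 11.79 in control mice, overlapping at control replicate 4, and differed by -0.14 (-0.26 to -0.02, adjusted p = 0.203). Of the group III receptors, which are presynaptic and inhibit release, Grm7 (mGluR7) differed by -0.11 (-0.20 to -0.02, adjusted p = 0.2), Grm4 (mGluR4) by -0.09 (-0.26 to 0.07) and Grm8 (mGluR8) by -0.06 (-0.24 to 0.11).

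The order seen within Dp1Yey mice for Grm3, with replicates 1 and 3 above the other three, was found in 9 of the 30 genes and in 11.9% of all genes, and the opposite order in 7 of the 30 and in 6.48% of all genes. It was not a matter of the metabotropic genes alone, since the 9 also held Grik3, Gria4, Grin2d, Grin3a, Adcy8 and Creb1. Grm4 was 7.85 in both Dp1Yey replicates 1 and 3 and between 7.54 and 7.56 in the other three. Grm8 was 7.15 and 7.05 in replicates 1 and 3 and between 6.69 and 6.76 in the other three. The control mice of Grm8, between 6.87 and 7.02, lay in the gap, so that the spread among Dp1Yey mice (SD 0.205) was wider than that among control mice (SD 0.059). The labels give nothing that separates these mice, and the difference in spread was not tested.

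**Figure D4:**
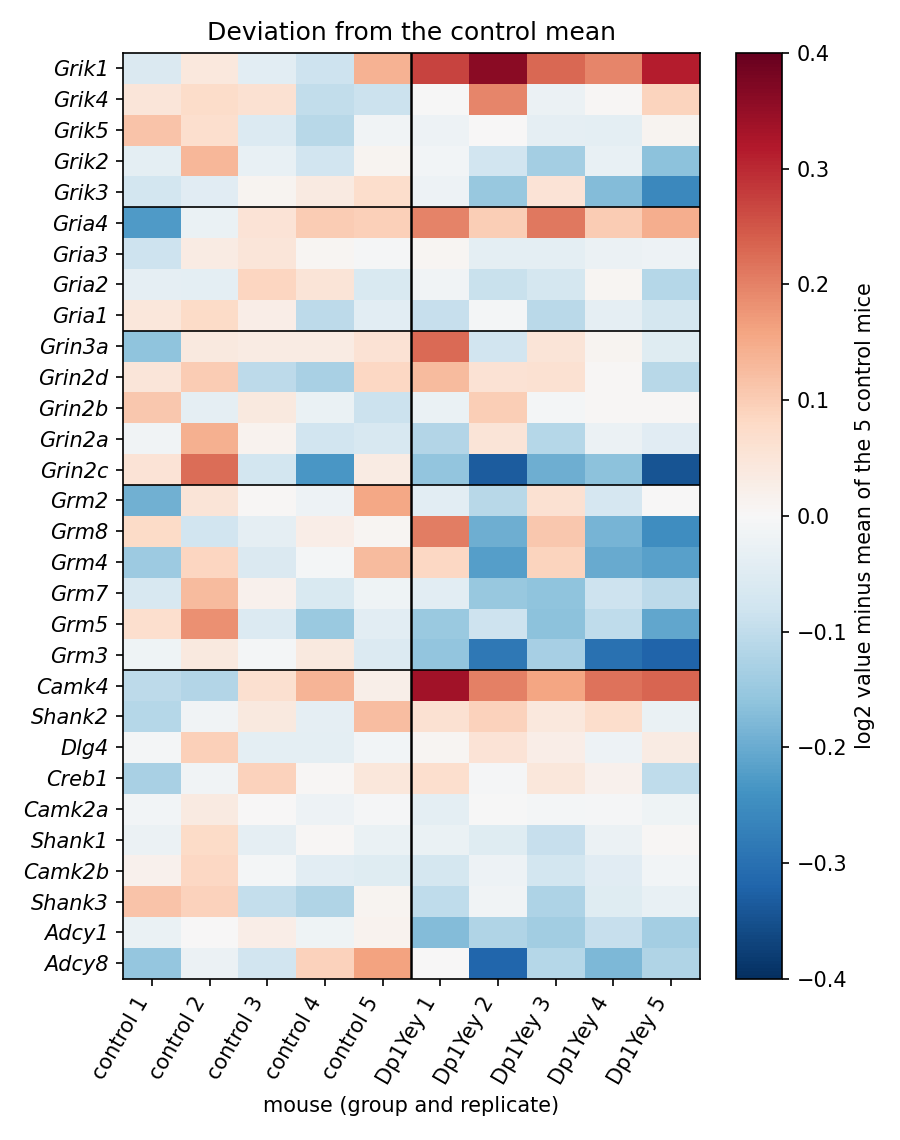
Deviation of each of the 30 genes from the mean of the 5 control mice (log2, colour scale from -0.4 to 0.4) in each of the 10 mice, by family, with control mice left of the vertical line. Grik1, Camk4 and Gria4 are positive in all 5 Dp1Yey mice. Grm3, Adcy1, Grin2c, Grm5, Grm7, Grik2, Gria1, Shank3, Camk2a and Camk2b are negative in all 5. Dp1Yey mice 1 and 3 differ from mice 2, 4 and 5 for Grm4 and Grm8.

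Of the 10 genes of the postsynaptic density and of plasticity signalling, none was called by limma. The scaffolds stayed near the control level: Dlg4 (PSD-95) differed by 0.02 (-0.05 to 0.09), Shank1 by -0.04 (-0.11 to 0.04) and Shank3 by -0.06 (-0.17 to 0.04). Shank2 was carried by 3 probe sets, and these did not go the same way: 0.05 (-0.05 to 0.14) for the brightest, which stands for the gene here, and -0.28 (-0.54 to -0.02, adjusted p = 0.227) and -0.14 (-0.40 to 0.12) for the others, with control replicate 1 the highest on both of the latter.

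Of the kinases, Camk2a and Camk2b, the subunits of CaMKII, the kinase of long-term potentiation, differed by -0.01 (-0.07 to 0.05) and -0.04 (-0.12 to 0.03), and the interval of Camk2a was the narrowest of the 30. Camk4 codes for CaMKIV, the nuclear kinase that phosphorylates CREB. Its log2 values were 9.34, 9.20, 9.16, 9.22 and 9.23 in Dp1Yey replicates 1 to 5 and 8.89, 8.88, 9.06, 9.13 and 9.02 in control replicates 1 to 5. All Dp1Yey mice were above all control mice, with control replicates 1 and 2 the lowest. Dp1Yey mice averaged 9.23 ± 0.066 and control mice 9.00 ± 0.108 (SD of 5 mice), a difference of 0.23 (0.11 to 0.34, 1.17-fold). It passed the rank statistic but not limma (adjusted p = 0.0665), and passed limma after centring each array on its median (adjusted p = 0.043). That centring called 294 of all genes higher, against 137 for the deposited values. The difference of Camk4 was 0.16 without control replicates 1 and 2. Subtracting the deviation of Camk2a within each mouse left it between 0.166 and 0.376 in Dp1Yey and between -0.154 and 0.156 in control mice, which restates the values of Camk4 and adds no evidence to them. Creb1, the target of this kinase, differed by 0.00 (-0.10 to 0.10).

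The calcium-stimulated adenylyl cyclases were both lower on average. Adcy1 (chr11:7063433-7178506) had log2 values of 11.28, 11.33, 11.31, 11.36 and 11.31 in Dp1Yey replicates 1 to 5 and of 11.42, 11.45, 11.48, 11.43 and 11.46 in control replicates 1 to 5. The difference was small but the spread within groups was smaller still, 11.32 ± 0.029 against 11.45 ± 0.022 (SD of 5 mice), and the groups did not overlap. It amounted to -0.13 (-0.20 to -0.07, 0.912-fold, adjusted p = 0.0586), just outside the threshold. It passed with array weights (adjusted p = 0.0387), with an intensity trend and robust prior (0.0353) and after quantile normalisation of the deposited values (0.0236). These settings called 46, 36 and 41 of all genes lower, respectively, against 22 for the deposited values as they stand. Adcy1 did not pass in any other setting, the rank statistic and each fit with a single array left out among them. Adcy8 varied more, between 8.23 and 8.55 in Dp1Yey and between 8.39 and 8.71 in control mice, and differed by -0.15 (-0.29 to 0.00, adjusted p = 0.26).

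**Figure D5:**
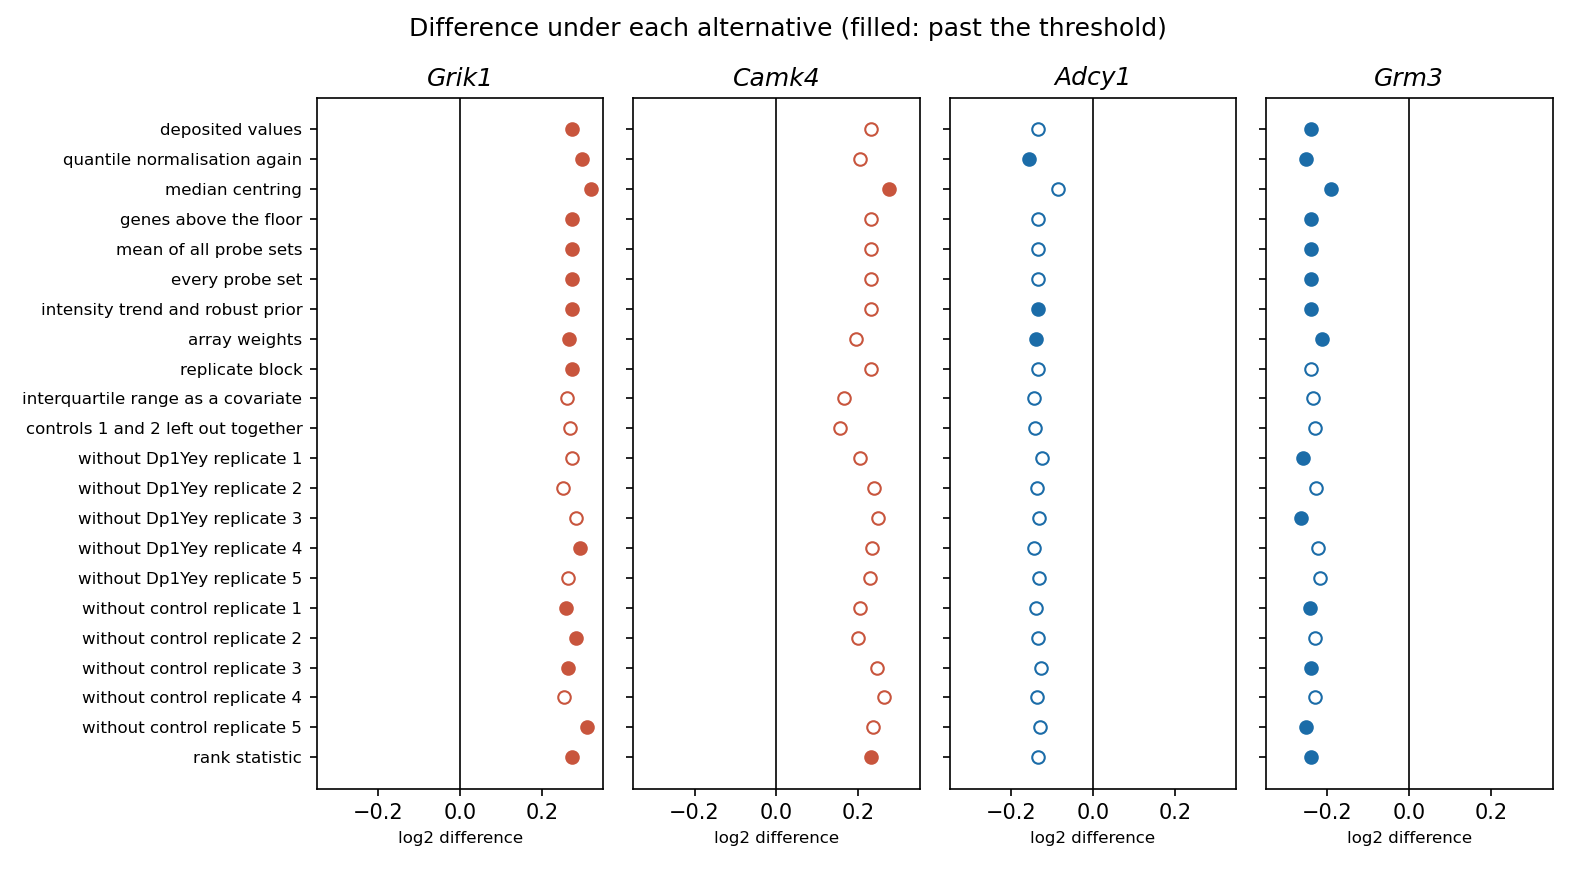
Log2 difference of Dp1Yey minus control for Grik1, Camk4, Adcy1 and Grm3 under the deposited values and each of 21 other settings; filled points passed the threshold of that setting. The direction of these 4 genes was the same in every setting drawn, while the side of the threshold changed for each of them.

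Within each Dp1Yey mouse, the 29 genes in 2 copies had a median deviation from the control mean of between -0.05 and -0.02 on the log2 scale, and the control mice ran from -0.02 to 0.05. Camk4 was the gene furthest above the control mean in Dp1Yey mice 1, 2, 4 and 5, and Gria4 in mouse 3. The gene furthest below it was Grin2c in mice 2, 3 and 5, Grm3 in mouse 4 and Adcy1 in mouse 1.

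A list of 97 further genes of glutamatergic signalling was examined beside these, covering other receptor subunits, auxiliary proteins, transporters, scaffolds, calcium and cAMP signalling and partners of CREB. Of the 86 measured, 40 were higher and 46 (53.5%) lower in Dp1Yey on average, where 57.9% of all genes were lower. Their median log2 difference was -0.01. None was called by limma or by the rank statistic. An unadjusted p under 0.05 in the limma fit was reached by 7 higher and 4 lower genes, against 8.75% and 10.8% of all genes. The lowest p belonged to Ppp1r1b (DARPP-32, an inhibitor of protein phosphatase 1), which differed by -0.19 (adjusted p = 0.109). Of all settings it passed only without control replicate 3 (adjusted p = 0.0184). Slc17a8 (VGLUT3, a vesicular glutamate transporter) differed by 0.24. Of the AMPA receptor auxiliary proteins, Cacng3 (a TARP that helps bring the receptors to the synapse) and Cacng2 (stargazin) differed by 0.22 and 0.12, and Cnih3 (a cornichon homologue) by -0.16. The scaffold Dlgap2 differed by 0.10. These 5 had adjusted p-values between 0.148 and 0.172.

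The promoter sequences of the 2-copy genes that were lower with no overlap between the groups, Grm3 and Adcy1, are shown because both lie outside the duplication and their start sites are in the RefSeq table used (GRCm38.p6, 250 bases before the annotated start). Promoters were found for 18 of the 31 genes, 23 promoters in all, and Grik1 was not among them. The stretch of Grm3 is chr5:9725353-9725602 on the minus strand and that of Adcy1 is chr11:7063183-7063432 on the plus strand. Both are written 5′ to 3′, with each CG dinucleotide in capitals.
Grm3: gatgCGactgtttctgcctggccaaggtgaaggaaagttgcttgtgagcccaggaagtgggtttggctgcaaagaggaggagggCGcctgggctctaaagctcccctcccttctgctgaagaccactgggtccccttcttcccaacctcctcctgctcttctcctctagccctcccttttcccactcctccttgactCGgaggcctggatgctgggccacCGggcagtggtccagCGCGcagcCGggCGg
Adcy1: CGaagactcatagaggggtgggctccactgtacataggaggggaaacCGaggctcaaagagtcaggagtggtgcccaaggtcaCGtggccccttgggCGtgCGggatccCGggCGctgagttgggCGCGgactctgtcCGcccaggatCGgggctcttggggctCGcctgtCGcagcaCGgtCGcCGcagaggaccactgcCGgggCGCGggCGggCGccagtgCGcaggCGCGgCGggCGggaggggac
The Grm3 stretch holds 8 CG dinucleotides, most of them close to the start, and the Adcy1 stretch holds 26. Over the 300 bases of the table's windows, which add 50 bases after the start, the 23 promoters had a median of 22 CG dinucleotides and all 32851 promoters a median of 7. The full cyclic AMP response element TGACGTCA, a palindrome and thus read on both strands at once, was in 0 of the 23 windows and in 588 (1.79%) of all windows. A match to these letters, or the lack of one in this window, says nothing of whether CREB binds.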

How the data were processed

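The deposited log2 values came from Affymetrix Mouse Gene 1.0 ST arrays, 1 per mouse, which the authors had processed by RMA (background corrected, quantile normalised across arrays and summarised per probe set). RMA, limma and mm10 are listed in the submitters' processing notes. The set of arrays normalised at once is not given in the sources used, and background correction was not redone.

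Of 35556 probe sets, 21789 carried 1 gene symbol, 1621 several and 12146 none or were not listed. Each gene was represented by its probe set of highest mean, giving 19938 genes, of which 19855 were placed on GRCm38.p6 (mm10) through Entrez identifiers. Dp1Yey and control mice (5 each, by sample title) were compared by lmFit and eBayes of limma 3.58.1 (R 4.3.3), with group alone in the model. Two-sided p-values were adjusted by Benjamini-Hochberg across the 19938 genes, and calls were made at an adjusted p under 0.05. Interval genes above background were also tested against log2 of 1.5. The rank statistic ranked the fold change of each Dp1Yey and control array pair and averaged the ranks with the outer 0.25 at either end trimmed, calling genes below 0.025 and above 0.975. Alternatives were a repeated quantile normalisation, median centring, a filter on background, all probe sets or their mean, array weights, a trend with a robust prior, a block for the replicate number, the interquartile range as a covariate, and leaving out each array or control replicates 1 and 2. The code was tested on simulated data. There the rank statistic called 1079 of 19938 genes, most of which had been given no difference, while 3.7% of the limma calls were false. Limma recovered 60% of the genes given a 1.2-fold difference and 96% of those given 1.5-fold. The rank statistic recovered 98% and 100%. The genes, lists and alternatives were chosen with earlier results of these data known. Every measured gene of the 31 is named, with the 6 other pathway genes of lowest p and the nearest called neighbours of Grik1. Arrays give no read depth, and their number limits the precision.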

Additional observations from a re-analysis of the deposited data

Results flagged for a closer look

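Among the 60 sets of 5 values (30 genes, 2 groups), 3 held a mouse far from the rest of its group, its gap to the nearest value divided by the range being above the 95% critical value of 0.71. By chance about 5% of sets pass this limit. For Grin2b, Dp1Yey replicate 2 stood at 11.65 where the other four lay between 11.53 and 11.56 (ratio 0.747). For Grin3a, control replicate 1 stood at 8.54 where the other four lay between 8.73 and 8.76 (0.874). For Dlg4, control replicate 2 stood at 12.2 where the other four lay between 12.07 and 12.1 (0.755). None of these 3 genes was called.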

How the results depend on the processing

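The number of the 30 genes called higher was 1, and it was 2 after median centring and by the rank statistic (with Camk4), 0 with the interquartile range covariate, 0 without control replicates 1 and 2, and 0 to 1 when single arrays were left out. The number called lower was 1, and it was 2 after repeated quantile normalisation, with a trend and robust prior and with array weights (with Adcy1) and by the rank statistic (with Grin2c), 0 with the replicate block, 0 with the interquartile range covariate, 0 without control replicates 1 and 2, and 0 to 1 when single arrays were left out. Of the other pathway genes, 0 to 1 were called lower when single arrays were left out. The Grik1 difference was 0.260 with the interquartile range covariate, 0.268 without control replicates 1 and 2 and 0.252 to 0.309 with single arrays left out. The cause of these changes was not tested. Over all genes, 137 were called higher and 22 lower. These counts were 44 and 2 with the covariate and 111 and 6 without control replicates 1 and 2. They were 65 to 166 and 3 to 70 when single arrays were left out. After median centring they were 294 and 14, and after repeated quantile normalisation 152 and 41. With a trend and robust prior they were 159 and 36, and with array weights 191 and 46.

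Same-numbered mice did not deviate together (correlations 0.062, 0.009, 0.04, 0.218 and -0.327, with 1 of 5 best matched to its own number), so the numbers were not taken as pairs. With the replicate block 90 genes were called higher and 4 lower, Grik1 stayed called and Grm3 did not (adjusted p = 0.0847).

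Median centring moved the median of all genes from -0.02 to 0.03, and the family medians with it. These became -0.003 for the kainate genes other than Grik1, 0.007 for the AMPA genes, 0.062 for the NMDA genes, -0.055 for the metabotropic genes and 0.021 for the postsynaptic genes. Without control replicates 1 and 2 the kainate median was -0.003, and with the covariate the postsynaptic median was -0.004. None of the genes whose sign turned was called in any setting. Under median centring the values were 0.0244 for Gria3, 0.0302 for Grik5, 0.0156 for Grm2, 0.00922 for Shank1, 0.0326 for Camk2a and 0.00273 for Camk2b. Under quantile normalisation they were -0.0179 for Grin2b, -0.0125 for Dlg4 and -0.0235 for Creb1. With the covariate they were 0.00611 for Grin2a, -0.0258 for Grin3a, 0.0336 for Grik5, 0.00631 for Shank1, -0.0328 for Shank2, 0.00624 for Camk2b and -0.0742 for Creb1. Without control replicates 1 and 2 they were -0.00817 for Grin3a, 0.044 for Grik5, 0.00583 for Shank3 and -0.0434 for Creb1. With array weights they were 0.00495 for Grik5 and -0.000924 for Creb1, and with the mean of all probe sets -0.125 for Shank2. Leaving out single arrays gave -0.00601 to 0.0419 for Grin2b, -0.00415 to 0.0636 for Grin2d, -0.0154 to 0.06 for Grin3a, -0.0443 to 0.0119 for Grik5, -0.0793 to 0.00757 for Grm2 and -0.0279 to 0.0308 for Creb1.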
